A study of Mus musculus with 6 samples.

Results

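The unified NF-YA CUT&RUN peak set of cultured mouse muscle stem cells (MuSCs) was searched for its faintest regions away from gene starts. Members were chosen by their NF-YA level and gene field: all peaks whose gene field is empty in the deposited table and whose mean over the 3 NF-YA libraries is below 20 normalised reads. This rule selected 2209 of the 9056 peaks (24.4%). They made up 77.1% of the 2865 peaks without a gene but carried only 6.05% of the summed signal of the set. Because the rule used the level and the gene field, the low level and the distance from gene starts are given below as descriptions without a test. Motif content, place within genes and the presence of neighbouring peaks were not values used by the rule. However, the rule keeps gene starts away from members, so place within genes is partly set by it, and neighbouring peaks may be. These features were compared with 3175 peaks that have a gene and a mean under the same limit (weak peaks with a gene). They were also compared with 656 strong peaks (mean of 20 or more) without a gene. Levels below the limit were not matched between members and weak peaks with a gene.

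The study compared 3 libraries made with an NF-YA antibody with 3 libraries made with mouse IgG, all from wild-type C57BL/6 MuSCs labelled as activated/proliferating. The values analysed here came from the 3 NF-YA libraries, which the study describes as biological replicates. The authors called the peaks against the IgG libraries. The IgG values were not analysed here, so no peak level could be set against its background. MuSCs had been sorted from limb and trunk muscle by integrin-α7 or a Pax7 reporter after removal of SCA1-, CD45- and CD31-positive cells and were then expanded in culture, which limits them as a model of the resting cell in muscle. Peak values contain no expression data, so the cell type was not checked against marker genes.

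In CUT&RUN, an antibody tethers micrococcal nuclease to its target in permeabilised cells, and the DNA released around the target is sequenced. NF-Y is a ubiquitous heterotrimer whose NF-YA subunit reads the CCAAT box, an element best known from promoters of housekeeping and cell cycle genes, while NF-YB and NF-YC form a histone-like dimer that bends the DNA. Sites far from promoters are also known for NF-Y. MuSCs are the stem cells of skeletal muscle and divide after activation under the control of PAX7 and the E-box-binding factor MYOD. AP-1, the FOS/JUN family that reads TGANTCA, RUNX and TEAD factors are further classes known to bind enhancers of dividing myogenic cells.

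The sequences below are from GRCm38.p6 (mm10), read on the plus strand from 50 bp before to 50 bp after the peak centre. Capitals mark CCAAT (read as ATTGG on the opposite strand), the E-box CAGCTG and the AP-1 element TGANTCA. The first 3 windows belong to the members with most CCAAT boxes over the whole peak and show arrays of repeated boxes.
chr5:134007362-134007462: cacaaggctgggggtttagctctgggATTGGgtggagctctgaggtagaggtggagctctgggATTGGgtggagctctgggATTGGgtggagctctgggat
chr3:53233558-53233658 (intron of *Lhfp*): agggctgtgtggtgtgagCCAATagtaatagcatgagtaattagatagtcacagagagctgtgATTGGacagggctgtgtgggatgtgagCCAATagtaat
chr12:30922551-30922651 (intron of *Sh3yl1*): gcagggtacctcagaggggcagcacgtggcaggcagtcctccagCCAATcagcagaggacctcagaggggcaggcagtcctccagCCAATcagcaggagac
The next 5 windows hold the longer NF-Y consensus (CCAAT with its usual neighbouring bases) and are among the intronic and intergenic members with the highest means; they show members with a single box or a pair of boxes, some beside another element.
chr14:47022312-47022412 (intron of *Samd4*): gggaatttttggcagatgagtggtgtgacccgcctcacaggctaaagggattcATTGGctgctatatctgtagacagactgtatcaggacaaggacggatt
chr1:176088549-176088649 (intron of *Pld5*): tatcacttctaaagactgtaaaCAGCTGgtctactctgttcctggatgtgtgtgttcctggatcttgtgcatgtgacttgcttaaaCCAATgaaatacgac
chr8:57934565-57934665 (intron of *Galntl6*): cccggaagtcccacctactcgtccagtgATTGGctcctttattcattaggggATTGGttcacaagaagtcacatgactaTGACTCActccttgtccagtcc
chr2:44536032-44536132 (intergenic): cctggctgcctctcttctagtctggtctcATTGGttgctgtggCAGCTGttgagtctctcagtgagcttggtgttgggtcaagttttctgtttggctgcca
chr11:120297931-120298031 (intergenic): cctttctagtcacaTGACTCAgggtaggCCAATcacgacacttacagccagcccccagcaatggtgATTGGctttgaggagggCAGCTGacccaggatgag
The remaining 5 windows were chosen after their values had been seen. They show a CCAAT box in introns of *Pax7*, *Met* and *Nfia*, and windows with CAGCTG and TGANTCA but no CCAAT.
chr4:139783055-139783155 (intron of *Pax7*): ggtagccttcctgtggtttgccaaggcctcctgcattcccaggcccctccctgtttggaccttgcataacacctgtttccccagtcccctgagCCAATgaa
chr6:17479070-17479170 (intron of *Met*): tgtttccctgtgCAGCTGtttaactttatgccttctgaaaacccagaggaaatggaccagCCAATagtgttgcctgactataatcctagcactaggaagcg
chr4:97868949-97869049 (intron of *Nfia*): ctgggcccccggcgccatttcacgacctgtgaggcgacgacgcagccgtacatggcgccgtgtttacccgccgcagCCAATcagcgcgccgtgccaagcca
chr9:94567902-94568002 (intergenic): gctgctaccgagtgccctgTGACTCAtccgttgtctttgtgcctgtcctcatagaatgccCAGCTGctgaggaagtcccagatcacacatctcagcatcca
chr4:97794967-97795067 (intron of *Nfia*): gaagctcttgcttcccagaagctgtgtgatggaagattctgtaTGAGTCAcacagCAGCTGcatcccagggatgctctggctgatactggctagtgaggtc

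The values of the members were low and close to the counting limit in all libraries. A normalised read is a read in a peak after scaling by the DESeq2 factor of its library, rounded to whole numbers and not corrected for peak length. In replicate 1, the members ranged from 0 to 35 with a median of 8. In replicate 2 they ranged from 0 to 34 with a median of 9, and in replicate 3 from 0 to 31 with a median of 8. From the value of 1 read in each library (0.669, 1.48 and 1.02 normalised reads), about 11.9 reads supported the median member in replicate 1. In the other two libraries the support was lower, with 6.09 reads for replicate 2 and 7.85 for replicate 3. The median mean was 8.33 for the members and 9 for the weak peaks with a gene. Members were 100 to 390 bp long, with a median of 142 bp (146 bp in weak peaks with a gene and 295 bp in strong peaks without a gene). The shortest length of 100 bp was found in 329 of them (14.9%), in 14.3% of weak peaks with a gene and in 8.68% of all peaks.

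**Figure D1:**
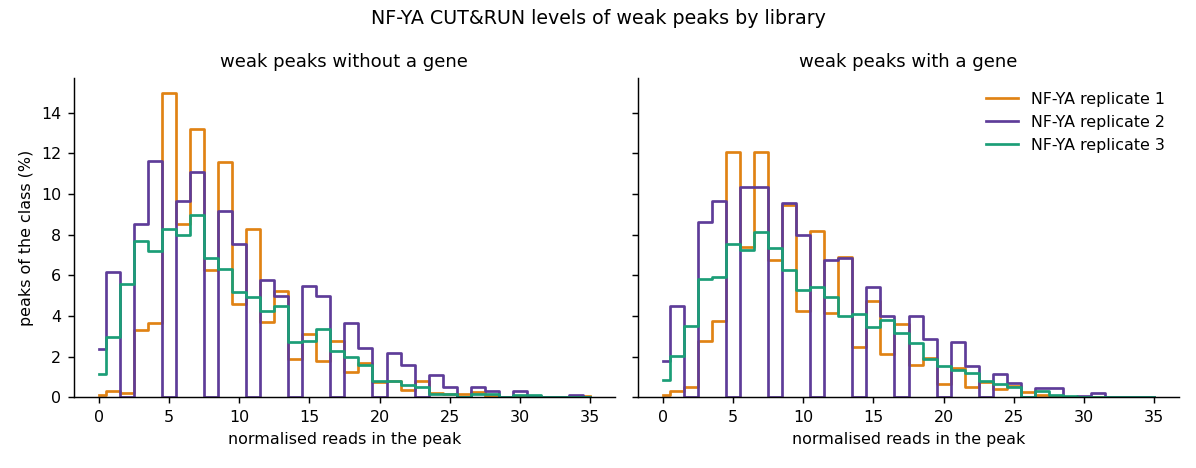
Share of peaks (y axis, percent of the class) at each normalised read value (x axis) in the 3 NF-YA libraries, for weak peaks without a gene (left) and with a gene (right). The curves overlap over most of the range, with member medians of 8, 9 and 8, and the comb in replicate 2 is the rounding of steps of 1.48 per read.

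A floor of 3 reads, equal to 2.01, 4.43 and 3.06 normalised reads in replicates 1 to 3, was used to mark low counts. It is a chosen limit and not a test against background. Replicate 1 had 14 members at or below this floor (0.634%), replicate 2 had 633 (28.7%) and replicate 3 had 384 (17.4%). Accordingly, 1419 of the 2209 members (64.2%, 95% Wilson interval 62.2 to 66.2) lay above the floor in all 3 libraries, while this held for 80.7% of all 9056 peaks and for 70.0% of the weak peaks with a gene. The rule on the mean lowers this share, so nothing is read from its gap to the whole set. A value of 0 was listed for 2, 52 and 25 members, respectively. Thus replicate 1, the library with most reads in peaks, was above its floor at nearly every member, and replicate 2 was the library most often at or below it. The study lists more enriched peaks for replicate 1 than for the other libraries, and the calls were merged into the unified set. The part of peak calling in these counts was not tested.

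Just inside the limit, 14 members shared the highest mean of 19.7, of which 5 taken by position are given. In the intron of *Ccnd3*, which encodes cyclin D3, a peak (chr17:47542178-47542384) held 16, 21 and 22 normalised reads in replicates 1, 2 and 3. An intron of *Actn1*, the gene of α-actinin-1, held 13, 30 and 16 (chr12:80220278-80220493), and an intergenic peak whose nearest coding start was that of the ligand gene *Wnt7b* held 21, 27 and 11 (chr15:85599126-85599340). The other two were intergenic, with 11, 25 and 23 (chr11:77629380-77629552) and 17, 24 and 18 (chr16:30778972-30779173). Just outside, 19 peaks without a gene had a mean of 20, and the 5 taken in the same way included introns of *Nf2*, the gene of the tumour suppressor merlin, with 18, 25 and 17 (chr11:4826264-4826476), of *Nckap5* with 24, 24 and 12 (chr1:126660486-126660765) and of *Eml6* with 21, 19 and 20 (chr11:29770760-29770998). The remaining pair, both intergenic, held 19, 22 and 19 (chr1:51386966-51387180) and 15, 22 and 23 (chr12:8436722-8436938). Values of single libraries on both sides of the limit overlapped, so membership at this edge is a matter of a few reads.

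At the lower end, 5 members had a mean of 1.67. An intron of *Sp2*, a zinc-finger factor of the Sp family, held 3, 1 and 1 (chr11:96967227-96967326), and an intron of *Nrcam*, a neuronal adhesion molecule, held 4, 1 and 0 (chr12:44344264-44344363). The 3 intergenic members held 5, 0 and 0 (chr14:48422048-48422166), 4, 0 and 1 (chr16:31492738-31492837) and 3, 1 and 1 (chr4:150257370-150257469). In all 5, replicate 1 was the only library above its floor, and none had a CCAAT box within the peak.

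Agreement between libraries was limited at these counts. Across the 2209 members, Spearman's rho of replicate 1 was 0.51 with replicate 2 and 0.52 with replicate 3, and that of the latter pair was 0.59, whereas over all 9056 peaks it was 0.86 to 0.89. These are correlations across peaks, which share the library, and the narrow range set by the rule lowers them. The median coefficient of variation (CV) was 35.3% in members, 33.1% in weak peaks with a gene and 21.4% in strong peaks without a gene. With the 852 members of mean 10 or more it was 30.1%, against 29.6% in the corresponding 1435 peaks with a gene. Squared differences between libraries were 1.31 times those expected from counting alone for replicates 2 and 3, and 1.71 times for each pair with replicate 1. With 3 libraries, a sign-flip test cannot give a p below 0.25, and none was run.

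Replicate 1 held the single highest value in 784 members (35.5%), replicate 2 in 694 (31.4%) and replicate 3 in 470 (21.3%). A tie for the highest was present in 261. In weak peaks with a gene, the shares of replicates 1, 2 and 3 were 35.1%, 28.9% and 25.0%. Among the members of mean 10 or more this order changed, with 204 (23.9%), 380 (44.6%) and 208 (24.4%) highest in replicates 1, 2 and 3. The corresponding peaks with a gene had 26.3%, 36.4% and 29.8%, so the order was not particular to the members. The study lists shorter reads and more enriched peaks for replicate 1 than for the other libraries. The part of read length and of peak calling in this order was not tested. Of the members with a mean of 10 or more, 3 had the same value in each library, namely 13 in an intron of *Ssh2* (chr11:77442244-77442494), 18 in an intron of *Ergic1* (chr17:26647273-26647467) and 10 in an intergenic peak (chr7:36667813-36667961). At the other end of this group, an intergenic member (chr3:36488986-36489125) held 7, 22 and 4, a CV of 87.7%, and another (chr11:121403277-121403395) held 5, 24 and 7. A peak at an exon of *Ccnd3* (chr17:47595560-47595732), 422 bp from an annotated transcript start, held 11, 3 and 25.

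Next, the position of the members within genes was examined with GENCODE M21. Most lay within introns: 1267 members (57.4%, interval 55.3 to 59.4) had an intronic centre, 829 (37.5%, 35.5 to 39.6) were intergenic and 113 (5.12%, 4.27 to 6.11) lay in exons. Strong peaks without a gene lay in introns in 58.7% of cases (difference -1.33 points, 95% Newcombe interval -5.58 to 2.99). Weak peaks with a gene were in introns in 35.5% and in exons in 17.8% of cases, so that members were more often intronic by 21.8 points (19.2 to 24.5). This difference partly follows from the rule, since a gene field was filled only near a gene start. Levels hardly varied with position, with medians of 9, 9 and 7 normalised reads in introns, 8, 7 and 8 between genes and 8, 7 and 7 in exons for replicates 1, 2 and 3.

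The empty gene field did not mean that a peak was far from every transcript start. Only 13 members (0.589%) lay within 10000 bp of the 5′ end of any gene, as the annotation rule of the authors demands. However, 577 members (26.1%, 24.3 to 28.0) had the start of some annotated transcript within 10000 bp, and 145 (6.56%, 5.60 to 7.67) had it within 1000 bp. Of these 145 starts, 141 belonged to protein-coding genes, yet 0 members lay within 1000 bp of the 5′ end of a protein-coding gene, so these were starts of other, shorter transcripts. The median distance to the nearest transcript start was 16108 bp and the largest was 311673 bp. Strong peaks without a gene had a start within 10000 bp in 31.7% and within 1000 bp in 14.2% of cases, more often than members. Over all peaks, these shares were 76.9% and 50.2%.

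Members at such starts included peaks at genes of metabolism and of the extracellular matrix. Among 5 of those with the highest means, the member nearest to a start lay 19 bp from a start of *Nadk*, which encodes NAD kinase, and held 19, 22 and 17 normalised reads (chr4:155582356-155582595). At *Dcakd*, 36 bp from a start and within an exon, the values were 26, 13 and 16 (chr11:103017015-103017248). At *P4ha2*, a subunit of the collagen prolyl 4-hydroxylase, they were 12, 18 and 23 at 105 bp from a start (chr11:54113006-54113189). Of these, the *Dcakd* and *P4ha2* peaks had CCAAT within 50 bp of the centre and the *Nadk* peak had none. *Lrrfip1* (476 bp, chr1:91052846-91053090) held 17, 13 and 23, and *Spsb1* (751 bp, chr4:149932207-149932406), an adaptor of a ubiquitin ligase, held 7, 34 and 17, the widest spread of the 5 with a CV of 70.6%. In the 145 members at a start, CCAAT occurred in 39.3% of windows, close to the 40.8% of the other 2064 members.

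To ask whether the members carry the sequence that NF-YA recognises, CCAAT was searched on both strands within 50 bp of the centre and in windows of the same length 1000 bp to either side. CCAAT was found at the centre of 899 members (40.7%, interval 38.7 to 42.8) and in 13.0% and 12.5% of the flanks. The paired differences were 27.7 points (24.0 to 31.4) and 28.2 points (24.5 to 31.8), at a level divided by the 15 motifs searched. The longer consensus, with 2 purines before CCAAT and C or G and a purine after it, occurred in 326 members (14.8%) and in 1.18% and 1.40% of the flanks. Over all 9056 peaks, 52.9% held CCAAT and 25.0% the longer consensus. In members with a box, the nearest box lay a median of 18 bp from the centre and within 20 bp in 57.3%. A match is a description of letters and does not show binding, and 1310 of the 2209 members had no CCAAT within the window.

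Compared with the other classes, the members held CCAAT less often than strong peaks without a gene, while their difference from weak peaks with a gene was small and depended on transcript starts. Strong peaks without a gene held CCAAT in 55.9% of windows, so that members were lower by 15.2 points (-15.2, interval -19.5 to -10.9). Weak peaks with a gene held it in 43.3%, a difference of -2.61 points with an interval (-5.28 to 0.0725) that includes 0. The longer consensus was less frequent in members than in weak peaks with a gene (14.8% and 19.0%, difference -4.20, -6.20 to -2.17). After removal of all peaks within 1000 bp of a transcript start the sign turned: 40.8% of the remaining members and 36.8% of the remaining 1375 peaks with a gene held CCAAT (3.99 points, 0.665 to 7.29). For the longer consensus the shares were then 14.6% and 14.0% (0.668 points, -1.75 to 3.02).

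**Figure D2:**
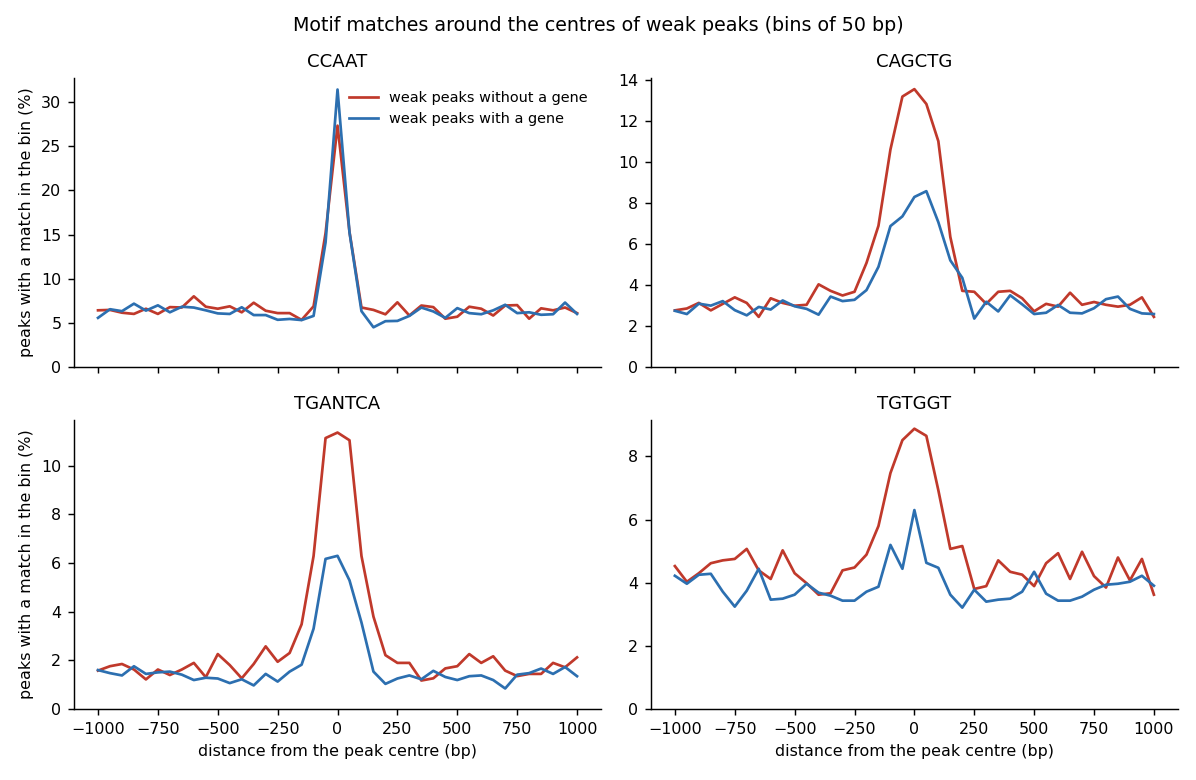
Share of peaks with a motif match (y axis, percent) in bins of 50 bp around the peak centre (x axis, bp) for CCAAT, the E-box CAGCTG, the AP-1 element TGANTCA and the RUNX element TGTGGT, in weak peaks without a gene (red) and with a gene (blue). All 4 motifs form a summit at the centre, with 27.3%, 13.5%, 11.4% and 8.87% of members in the central bin, and the red summits of CAGCTG and TGANTCA stand above the blue.

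The members also held elements of other factor families at their centres. Of 15 motifs, 6 were more frequent at the centre than in both flanks, 1 was less frequent and 8 gave no call. CAGCTG, the E-box form preferred by MYOD, occurred in 535 members (24.2%) and in 5.39% and 5.66% of the flanks, and over all peaks in 15.1%. TGANTCA, the AP-1 element, occurred in 466 members (21.1%) and in 2.85% and 3.30% of the flanks, and over all peaks in 11.5%. The RUNX element TGTGGT was found in 15.4% (flanks 8.92% and 7.79%, all peaks 9.97%) and the TEAD element CATTCC in 10.2% (flanks 5.21% and 5.52%, all peaks 7.82%). GGGCGG, the GC box read by Sp factors, was rare in members at 4.98%, though above the flanks with 1.58% and 1.54%, and it occurred in 21.3% of all peaks. The element AGATAA of GATA factors was the motif found less often at the centre (2.63%) than in the flanks (4.93% and 6.34%; all peaks 2.10%).

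No call was obtained for CACGTG (2.40% of members and 3.16% of all peaks), the MEF2 core (1.77% and 1.39%), CCGGAAG, an ETS core (0.770% and 3.03%), the CTCF core (0.362% and 0.353%), TGACGTCA (0.181% and 0.729%), the NRF1 core (0.0453% and 1.12%) and TCAAGGTCA (0.0453% and 0.0552%). The palindromic NFI element was found in 0 members and in 0.0221% of all peaks. These letters are short forms, and their absence from a window says nothing about a factor. Centres had a median GC content of 51.5%, flanks 47.5%, and how far composition contributes to the motif shares was not tested.

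CAGCTG and TGANTCA were more frequent in members than in weak peaks with a gene, and the difference was smaller away from transcript starts. CAGCTG was found in 24.2% of members and 15.0% of the weak peaks with a gene, a difference of 9.23 points (7.06 to 11.4). For TGANTCA the shares were 21.1% and 11.3%, a difference of 9.79 points (7.78 to 11.8), and for TGTGGT 15.4% and 10.4% (5.07 points, 3.25 to 6.94). Transcript starts lay within 1000 bp of 56.7% of the weak peaks with a gene but of 6.56% of members. Without these peaks, CAGCTG stood at 24.7% and 21.9% (2.77 points, -0.128 to 5.61), TGANTCA at 21.7% and 18.8% (2.82 points, 0.0632 to 5.52) and TGTGGT at 15.9% and 15.6% (0.376 points, -2.14 to 2.83). Against strong peaks without a gene, the members had more TGANTCA (21.1% and 14.6%, 6.46 points, 3.12 to 9.51) and more CAGCTG (24.2% and 20.3%, 3.94 points, 0.262 to 7.37). These are undivided 95% intervals, and with the level divided by the 15 motifs the interval for CAGCTG (-1.66 to 8.98) includes 0, whereas that for TGANTCA (1.34 to 10.9) does not. Away from starts the first difference was 5.32 points (1.61 to 8.68) and the second 2.99 points, with an interval (-1.03 to 6.72) that includes 0. GGGCGG was lower by 18.3 points (-18.3, -20.0 to -16.6) than in weak peaks with a gene and still lower without peaks at starts (-3.32, -5.03 to -1.73).

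**Figure D3:**
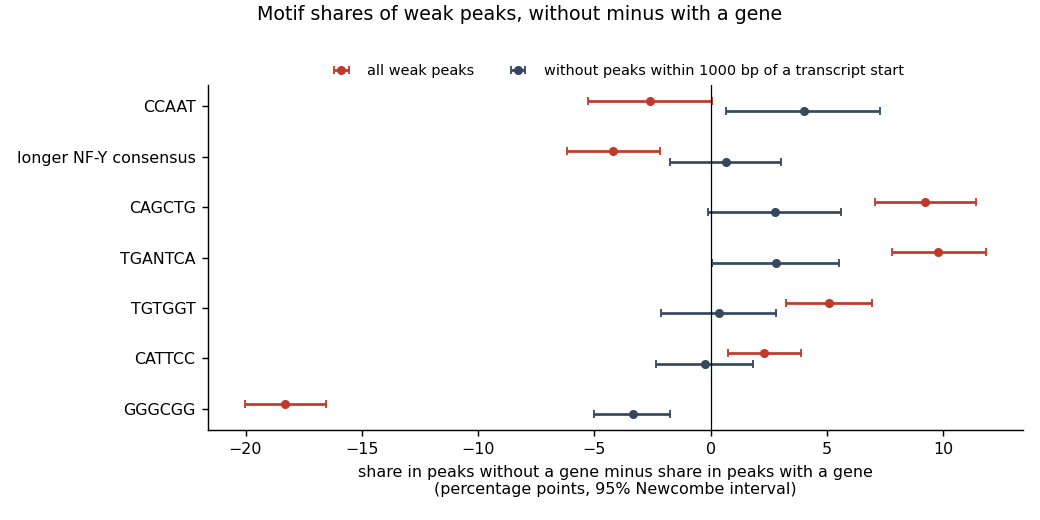
Difference in motif share (x axis, percentage points, with 95% Newcombe intervals) between weak peaks without and with a gene for 7 motifs (y axis), in all weak peaks (red) and without peaks within 1000 bp of a transcript start (dark). The differences for CAGCTG and TGANTCA shrink from 9.23 and 9.79 to 2.77 and 2.82 points, and that for CCAAT turns from -2.61 to 3.99.

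Within the members, CAGCTG and TGANTCA were less frequent where CCAAT was present. Of the 899 members with CCAAT, 151 (16.8%) also held CAGCTG, compared with 384 of the 1310 without CCAAT (29.3%), a difference of -12.5 points (-15.9 to -8.99). TGANTCA was found in 17.4% of members with and 23.7% of members without CCAAT (-6.31 points, -9.64 to -2.88). Both flanks of the 2 sets were alike, with mean shares of 5.67% and 5.42% for CAGCTG. For TGTGGT the shares were 14.8% and 15.9%, with an interval (-4.09 to 2.02) that includes 0, and for CATTCC they were 9.68% and 10.5% (-0.857 points, -3.36 to 1.76). GGGCGG was more frequent with CCAAT than without it (6.12% and 4.20%, 1.92 points, 0.0674 to 3.92). Lower shares of CAGCTG beside CCAAT were also present in the weak peaks with a gene (CAGCTG 9.96% and 18.8%) and in the strong peaks without a gene (12.8% and 29.8%), so they were not particular to the members. In all, 618 members (28.0%) held CCAAT without CAGCTG or TGANTCA, 627 (28.4%) held CAGCTG or TGANTCA without CCAAT, 26 (1.18%) held all of the 3 motifs and 683 (30.9%) held none of them. Over all 9056 peaks, these shares were 44.4%, 16.1%, 0.508% and 31.0%, in the same order. The group with CAGCTG or TGANTCA but no CCAAT was larger among members than among weak peaks with a gene (17.1%, difference 11.3 points, 9.00 to 13.6) or strong peaks without a gene (19.2%, 9.18 points, 5.49 to 12.6). This group was not compared without peaks near transcript starts. Away from starts, the single differences from weak peaks with a gene were smaller, with 2.77 points for CAGCTG and 2.82 points for TGANTCA.

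The members with the highest means in these groups were examined individually, chosen after their values were seen. An intergenic member with CAGCTG and TGANTCA but no CCAAT in the whole peak (chr9:94567848-94568056) held 18, 16 and 19 normalised reads. A second one (chr1:92379147-92379393) held 20, 16 and 16, and another (chr5:134959271-134959471), 12437 bp from the start of the claudin gene *Cldn4*, held 17, 18 and 14. All 3 were above the floor in every library and had CVs of 8.65% to 13.3%. Of members with all of the 3 motifs, the one 8188 bp from a start of *Bahcc1* (chr11:120297891-120298071) held 20, 16 and 20, and an intergenic one (chr5:105941867-105942114) held 13, 21 and 22. In an intron of *Sim2*, a bHLH-PAS factor gene, the CCAAT box and CAGCTG directly adjoined each other, and the values were 15, 24 and 14 (chr16:94119196-94119391).

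Levels and motif content were related in the members, as a description, since the levels chose them. In members with a mean below 5, CCAAT was present in 22.1% of 402 (interval 18.4 to 26.5). The share was 41.7% (38.6 to 44.8) of 955 at 5 to below 10, 46.8% (42.7 to 50.9) of 562 at 10 to below 15 and 51.4% (45.6 to 57.1) of 290 at 15 to below 20. In weak peaks with a gene, the lowest bin held CCAAT in 32.3% of 449 (28.1 to 36.8) and the highest in 53.8% of 580 (49.7 to 57.8). The bins between them held it in 40.4% of 1291 (37.7 to 43.1) and 46.4% of 855 (43.1 to 49.8), close to the members. In the members, CAGCTG stayed between 23.4% and 24.6% in all 4 bins. TGANTCA was found in 23.1% and 23.2% in the lower bins and in 17.6% and 17.9% in the upper bins. Only 4 of the 402 members below 5 were above the floor in all libraries (0.995%), whereas all 290 members in the top bin were. Among the 1419 members above the floor, CCAAT reached 46.0%, CAGCTG 24.2% and TGANTCA 19.8%.

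**Figure D4:**
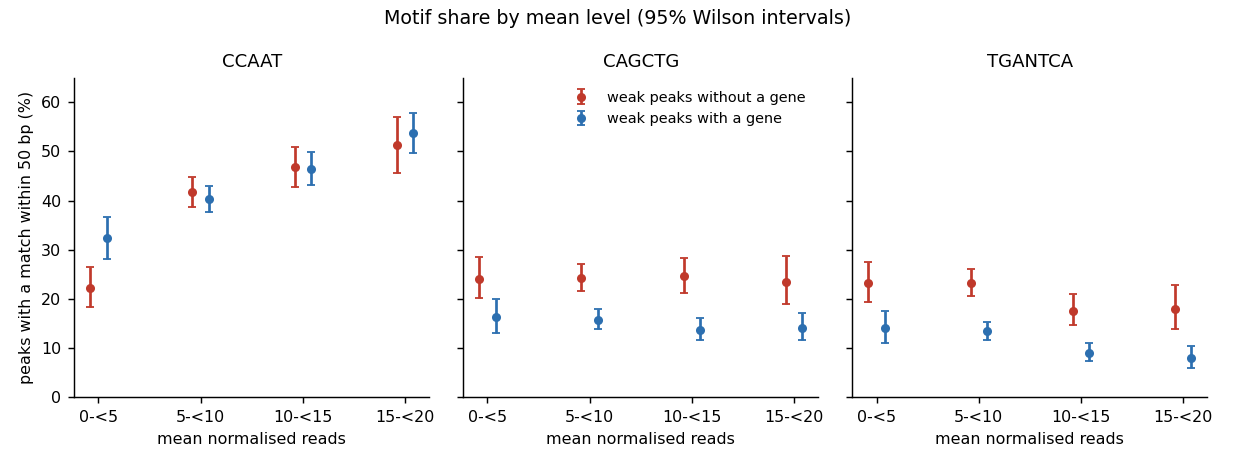
Share of peaks with a motif match within 50 bp of the centre (y axis, percent, with 95% Wilson intervals) by mean normalised reads (x axis), for weak peaks without a gene (red) and with a gene (blue). The CCAAT share of members increases from 22.1% in the lowest to 51.4% in the highest bin, while CAGCTG stays near 24%.

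The libraries differed slightly in which members they favoured. Members with CCAAT had medians of 9 in each of replicates 1, 2 and 3, and members without CCAAT had medians of 8, 7 and 7. Relative to the mean of the other two libraries, the summed value of replicate 1 was 0.943 in members with CCAAT and 1.12 in members without it. Replicate 1 was the highest library in 27.7% of members with and 40.8% of members without CCAAT. The part of the larger number of peaks called in replicate 1 was not tested. Members with CAGCTG had medians of 8, 7 and 7 and those with TGANTCA also 8, 7 and 7.

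Repeated CCAAT boxes were found in a small set. Over the whole peak, 1167 members (52.8%) had no box, 777 (35.2%) had 1, 213 (9.64%) had 2, 43 (1.95%) had 3 and 9 had 4 or more. The member with the most, 7 boxes, was intergenic (chr5:134007305-134007518) and held 14, 13 and 9 normalised reads. All 7 boxes had the same orientation, at intervals of 18 to 39 bp between starts. In the intron of *Lhfp*, a member with 6 boxes (chr3:53233492-53233723) held 13, 13 and 18, with 3 boxes in each orientation. Members with 5 boxes, all in 1 orientation, were in introns of *Sh3yl1* (chr12:30922486-30922715, values 13, 16 and 18) and of *Lrp5*, which encodes a WNT co-receptor (chr19:3657166-3657324, values 7, 12 and 27), and between genes (chr17:45237740-45237898, values 11, 16 and 13). Of these 5, the *Lrp5* peak had a CV of 67.9% and the others of 16.1% to 22.0%. In the *Lrp5* peak, 85.5% of bases were soft-masked as repeat, compared with at most 9.13% in the other 4. For the 213 members with 2 boxes the median interval was 42 bp, and both had the same orientation in 122 (57.3%). Box number, interval and orientation over the whole peak were counted in the members only. Whether they differ from those of other peaks was not tested.

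Members with the longer consensus and the highest means showed how uneven the libraries could be. In introns, they held 9, 31 and 18 normalised reads in *Samd4*, an RNA-binding protein gene (chr14:47022274-47022449), 7, 28 and 22 in *Zfp385b* (chr2:77639180-77639379), 23, 16 and 18 in *Pld5* (chr1:176088486-176088712) and 23, 21 and 13 in *Galntl6* (chr8:57934503-57934727). Between genes, values were 11, 30 and 17 (chr2:44535985-44536178), 35, 12 and 11 (chrX:75779731-75780050), 12, 24 and 20 (chr1:42917998-42918200) and 20, 16 and 20 (chr11:120297891-120298071). The peak on chromosome X was high in replicate 1 alone, and those in *Samd4* and *Zfp385b* were low in replicate 1. All 8 were above the floor in every library.

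Soft-masked repeat was less frequent at the centres of members than in their flanks. The centre base was soft-masked in 177 members (8.01%, 6.95 to 9.22) and in 6.37% of all peaks (5.89 to 6.89). In the flanks of members, the shares were 23.4% and 24.5% (differences -15.3 points, -17.4 to -13.3, and -16.5 points, -18.6 to -14.4). The authors kept uniquely mapped reads, and its part in this depletion was not tested. Weak peaks with a gene had 6.77% (difference 1.24 points, -0.168 to 2.70). In soft-masked members, CCAAT was present in 48.0% (40.8 to 55.3) and in the others in 40.1% (37.9 to 42.2). Among the 2209 windows, 0 were identical to that of another member.

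Members were more isolated than the other classes. Another peak centre lay within 10 kb of 597 members (27.0%, 25.2 to 28.9), of 41.6% of weak peaks with a gene (-14.5 points, -17.0 to -12.0) and of 33.7% of strong peaks without a gene (-6.66 points, -10.8 to -2.67). A strong peak lay within 10 kb of 10.0% of members and of 25.8% of weak peaks with a gene (-15.8 points, -17.7 to -13.8). The median distance to the nearest other peak was 35199 bp for members and 17364 bp for weak peaks with a gene. Gene starts, where many peaks of the set lie, are kept away from members by the rule. The part of the rule in the isolation was not tested. Without the members and weak peaks with a gene at transcript starts, the difference was -19.1 points (-22.4 to -15.9). Neighbours were still counted over all peaks, including those at starts, so this setting cannot show the part of the rule.

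Inside protein-coding genes, the members were spread widely. The 1303 members within coding gene bodies fell into 981 genes, of which 759 held 1 member, 144 held 2 and 51 held 3. The largest count, 26, belonged to *Gm20388*, a gene model of 4435 kb on chromosome 8 that spans many other genes, among them *Gse1* with 9 members in 353 kb. *Sorcs2*, a sorting receptor gene, held 10 of the 11 peaks in its 381 kb as members. *Fgfr2*, an FGF receptor gene that is annotated over 2961 kb in GENCODE M21, held 7 members, 6 of them in stretches shared with *Tacc2*, *Lhpp* or *Fam53b*. *Msi2*, which encodes a Musashi RNA-binding protein, and *Sept9*, a septin gene, held 6 each. *Lmna*, *Atoh8* and *Pakap* held 5 each, and 18 genes shared the following place with 4.

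*Sorcs2* and *Lmna* show what such groups look like; they were chosen after the counts were seen. In *Sorcs2*, the highest values were 16, 27 and 14 (chr5:36356795-36356951) and 21, 13 and 20 (chr5:36373360-36373548), both within 10 kb of a transcript start and without CCAAT at the centre. Of its 10 members, 4 were above the floor in all libraries and 2 had CCAAT. *Lmna* encodes lamin A and C of the nuclear lamina, and its 29.8 kb held 5 members and 1 further peak. The highest of them lay 723 bp from a transcript start with 9, 21 and 17 normalised reads and TGANTCA at the centre (chr3:88492494-88492683). The only one of the 5 with CCAAT held 11, 7 and 7 and also carried the longer consensus and TGANTCA (chr3:88488591-88488722). The remaining 3 held 7, 12 and 13, 5, 4 and 11, and 9, 3 and 7 in replicates 1, 2 and 3.

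Of the 40 genes of a muscle list that covers myogenic regulators, stem cell receptors and sarcomere genes, 15 had a member in the gene body or as the nearest coding start. The share of all genes with a member was not computed. These 15 genes accounted for 31 members, and 17 of these were above the floor in all libraries. Within 50 bp of the centre, 9 held CCAAT, 4 CAGCTG, 9 TGANTCA and 4 TGTGGT. Among all members, the motif shares were 40.7%, 24.2%, 21.1% and 15.4% in this order, and 64.2% were above the floor. Over all 9056 peaks, they were 52.9%, 15.1%, 11.5% and 9.97%, with 80.7% above the floor. Values ranged from 3 to 23 in replicate 1 (median 7), from 1 to 22 in replicate 2 (median 7) and from 1 to 24 in replicate 3 (median 6). These 31 were thus no stronger than the members at large, with medians of 8, 9 and 8.

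Many genes of the list encode transcription factors, and the members at these are given first. An intron of *Pax7*, the paired-box factor that marks MuSCs, held 20, 19 and 15 normalised reads and carried the longer consensus and TGTGGT (chr4:139782989-139783221), with a CV of 14.7%. *Nfia*, a nuclear factor I gene, had 4 intronic members, the highest with 23, 10 and 21 and the longer consensus (chr4:97868898-97869099). The other 3 in *Nfia* held 7, 6 and 8, 5, 6 and 3, and 5, 1 and 4, and 2 of these carried CAGCTG with TGANTCA in place of CCAAT. At *Mef2c*, a MADS-box factor of muscle differentiation, the values were 9, 7 and 8 at 379 bp from a transcript start, with CCAAT (chr13:83523795-83523908). *Runx1* was the nearest coding start of 7 members, 2 of them inside the gene. The others were intergenic, 77992 to 367314 bp from that start. The highest mean was in an intergenic one that held 11, 13 and 13 and TGANTCA (chr16:92952798-92952971). The member at an exon of *Runx1*, 559 bp from a start, held 5, 12 and 12 with CCAAT and TGANTCA (chr16:92696698-92696834). *Tead1* had 2 members, with 12, 10 and 24 and with 3, 3 and 9, and *Tead4* had 2, with 10, 10 and 17 and with 4, 3 and 3, both genes encoding TEAD factors of the Hippo pathway. *Meis1*, a homeobox gene, had 1 with 6, 9 and 2.

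Receptor and adhesion genes followed. *Met* encodes the receptor of hepatocyte growth factor, a signal of MuSC activation, and had 3 intronic members. The highest held 16, 22 and 16 with CCAAT and CAGCTG (chr6:17478978-17479262), the next 6, 6 and 6 with TGANTCA, and the lowest 3, 4 and 2 with CCAAT. *Igf1r*, the receptor of insulin-like growth factor 1, had 3 with 10, 1 and 8, 5, 4 and 6, and 7, 4 and 2. *Fgfr4* was the nearest coding start of 2 intergenic members with 11, 15 and 9 and with 5, 3 and 3. An intron of *Sdc4*, a heparan sulfate proteoglycan of MuSCs, held 6, 7 and 19, and intergenic members near *Vcam1*, an adhesion molecule, and *Notch1*, a receptor of the quiescence-associated Notch pathway, held 7, 16 and 4 and 4, 3 and 1. Single members were also assigned to the sarcomere and filament genes *Acta1* (8, 19 and 19) and *Des* (8, 7 and 5). The library with the highest value differed from gene to gene, and no library led throughout.

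**Figure D5:**
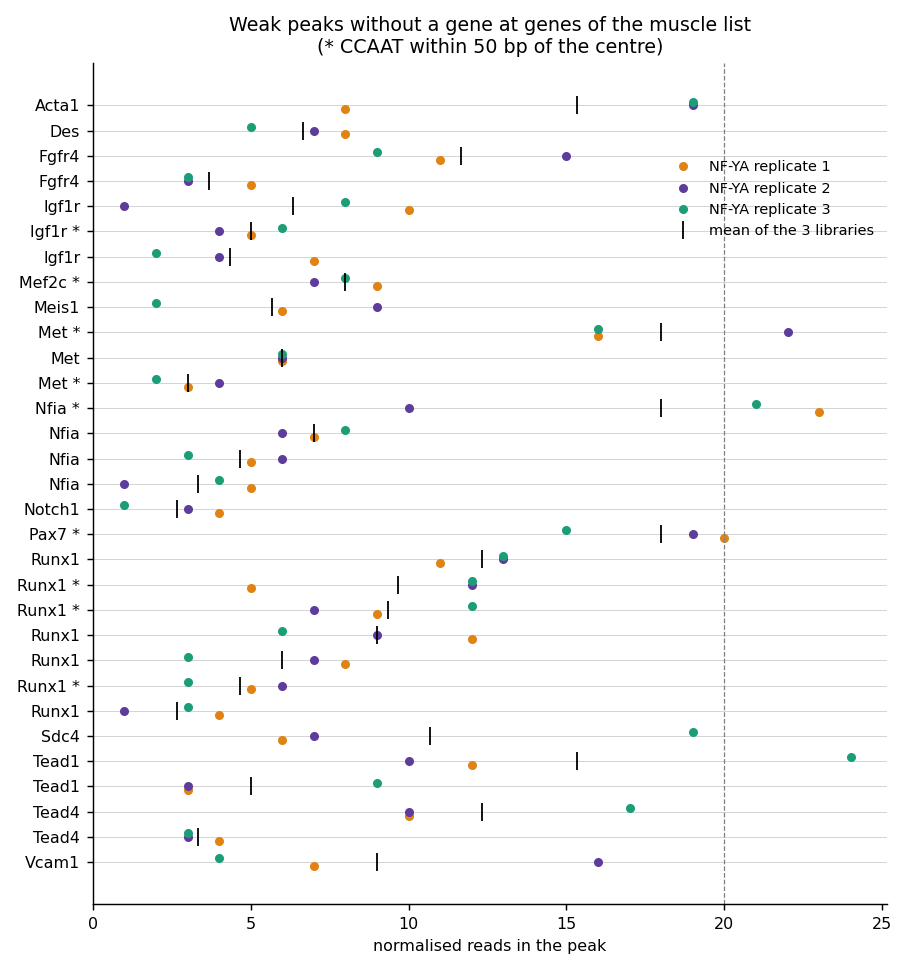
Normalised reads (x axis) of the 31 members at genes of the muscle list (y axis, 1 row per peak, named by gene) in the 3 NF-YA libraries (coloured points) with their mean (black bar) and the limit of 20 (dashed line). Peaks in *Pax7*, *Met* and *Nfia* reach a mean of 18 and carry CCAAT (star), and those at *Tead1* and *Acta1* reach 15.3, while all others stay below 13.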

How the data were processed

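NF-YA CUT&RUN libraries (3) and mouse IgG libraries (3) were prepared from cultured wild-type MuSCs. Per the labels' processing notes and the study's methods, reads were trimmed with Trimmomatic 0.39, aligned to mm10 with STAR 2.7.9a, deduplicated with Picard 2.25.5, called with MACS2, merged into unified peaks, counted with featureCounts and normalised with DESeq2 1.30.0; a gene was given where its TSS lay within 10000 nt. The deposited values, a score by unit and called normalised reads in the text, are reads divided by a library size factor and rounded by the authors, so no count model was fitted. Their steps of 0.669, 1.48 and 1.02 gave the worth of 1 read, and depth in peaks differed accordingly. All 3 value columns were matched to a sample, leaving 0 unmatched.

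Peak centres were placed on GRCm38.p6 with GENCODE M21, and all 9056 peaks lay within its chromosomes. For 6141 of the 6191 peaks with a gene, that gene had the same start and end in GENCODE M21. Motifs were searched on both strands within 50 bp of the centre. Shares carry 95% Wilson, Newcombe (between classes) or Agresti-Min (centre against flank) intervals, which cover sampling of peaks and not spread between libraries; peaks are not replicates, and no p-value was computed. The calculations used Python 3.11.15, numpy 2.4.6, pandas 2.3.3, scipy 1.17.1, statsmodels 0.14.6, pysam 0.24.0 and matplotlib 3.10.9 and were tested on simulated data.

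The members, motifs and gene lists were chosen with earlier results of these data known. Named were the 5 members just below the limit, the 5 peaks just above it, the 5 with the lowest mean and the 5 with most CCAAT. Also named were the 5 highest within 1000 bp of a coding start and the 4 intronic and 4 intergenic ones highest with the longer consensus. Of those with the 4 smallest and 4 largest CVs at a mean of 10 or more, and of those at *Runx1*, only some are given in the text. The other members at genes of the muscle list are all given. Ties were taken by chromosome name sorted as text, then start, and other names were added after values were seen. Alternatives covered the window, consensus, repeats, starts, length, floor, rescaling and each library left out.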

Additional observations from a re-analysis of the deposited data

How the results depend on the processing

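Of 89 alternative values, 70 kept their direction and their side of the threshold or moved within their error. The CCAAT difference from weak peaks with a gene (-2.61 points) reversed to 3.99 without peaks at transcript starts. Its interval lay below 0 with the longer consensus (-4.20), without soft-masked centres (-3.22), with levels per kb (-4.05) and without replicate 1, and ranged from -3.21 to -1.70 with each replicate left out. The CAGCTG difference (9.23) was 2.77 without peaks at starts, with an interval including 0. The intronic share was 54.0% with protein-coding genes only. The share near a start was 4.57% at 500 bp and 16.7% at 5000 bp. The median CV was 28.6% above the floor, 36.0% after rescaling, 30.1% at means of 10 to below 20 and 28.3% with any replicate left out, when its difference from weak peaks with a gene (2.20) was 0 to 3.90. The share above the floor was 88.5% for 1 read and 42.7% for 5 reads, and ranged from 64.1% to 82.4% with each replicate left out (the highest without replicate 2). Beyond what these settings change by construction, the cause was not tested. Leaving out a replicate gave 2181 to 2254 members, with 97.0% to 98.4% of the 2209 shared. No paired analysis was possible because values of the NF-YA libraries alone were analysed. Depth limits what single members show: at the median, replicate 2 had about 6.09 reads.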

Other observations

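Members were found on all of the 21 chromosomes. The density was highest on chromosome 11, with 1.43 members per Mb, while chromosome X held 18 members (0.105 per Mb) and chromosome Y held 1. Weak peaks with a gene were also densest on chromosome 11 (2.40 per Mb) and sparse on X (0.327 per Mb), with 0 on Y. This pattern was thus not particular to the members. Compared with weak peaks with a gene, the share of members was lower on chromosome 7 (6.16% and 9.95%, -3.80 points, -6.01 to -1.50) and on chromosome 17 (3.71% and 5.64%, -1.93 points, -3.65 to -0.112), at a level divided by the 21 chromosomes. It was higher on chromosome 18 (4.03% and 2.17%, 1.86 points, 0.418 to 3.47). On the other chromosomes the interval included 0.

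The 329 members of exactly 100 bp had medians of 5, 4 and 4 normalised reads in replicates 1, 2 and 3 and a median CV of 45.8%. CCAAT was found in 32.8% of them (28.0 to 38.1) and in 42.1% of the longer members (39.9 to 44.3), while TGANTCA was found in 20.7% and 21.2%. In exons, TGANTCA was found in 9.73% of 113 members (5.52 to 16.6), between genes in 23.0% of 829 (20.3 to 26.0) and in introns in 20.8% of 1267 (18.7 to 23.2).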
